A study of Homo sapiens with 12 samples.

Results

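Transcript levels of 7 secreted factors that act on blood or lymphatic vessels were followed in FDX2-iKO ES2 cells. They are VEGFA, VEGFB, VEGFC, PGF, ANGPTL4, ADM and EDN1. They were taken by gene symbol from the 58735 genes of the count table, and all 7 were found. ES2 is a human ovarian cancer cell line. In its FDX2-iKO derivative the endogenous FDX2 gene is knocked out in every cell, controls included, and a tetracycline-controlled TRE promoter drives an editing-resistant FDX2-HA cDNA as long as doxycycline (Doxy) is present. Withdrawal of Doxy therefore gives FDX2 loss. No library came from cells without this switch, so FDX2 loss and an effect of Doxy itself cannot be told apart. FDX2 encodes a mitochondrial ferredoxin that takes part in building iron-sulfur clusters. The paper made clones of this line and shows the same clone unless stated, but the labels name no clone. Spread between clones therefore cannot be read from these libraries.

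Bulk poly(A) RNA was sequenced from 4 conditions with 3 libraries each, 12 in all. The conditions were 20% O2 +Doxy (FDX2-proficient), 20% O2 wo Doxy (FDX2-deficient), 3% O2 +Doxy and 3% O2 wo Doxy. Cells at 20% O2 were cultured for 6 days. Cells at 3% O2 had 4 days at 20% O2 followed by 3 days at 3% O2, which makes 7 days, so oxygen and the longer culture cannot be told apart.

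Vascular endothelial growth factors are secreted ligands that bind tyrosine kinase receptors on endothelial cells, with the neuropilins as co-receptors. VEGFA is the main driver of vessel growth and a classic target of hypoxia-inducible factors (HIFs), and it is also known to be induced by ATF4, the transcription factor of the integrated stress response. Adrenomedullin (ADM) and endothelin-1 (EDN1) are peptide hormones with opposite effects on vessel tone, and ANGPTL4 is a secreted inhibitor of lipoprotein lipase that is known to be induced by hypoxia and by PPARs.

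Totals per library lay between 24958386 and 34313637 counts, and 16891 genes had enough counts to be tested. FDX2 itself had only 2 to 13 counts in any library. Its mean was 0.136 CPM with Doxy and 0.276 without it at 20% O2, and 0.202 and 0.238 CPM at 3% O2, higher without Doxy at both oxygen levels, with overlapping libraries. At such low counts the loss of FDX2 cannot be judged, and the conditions are named by their labels. Of 10 epithelial and ovarian carcinoma markers only KRT8, KRT18, KRT7 and PAX8 were tested, while EPCAM and CDH1 had at most 3 counts in any library and MUC16 had 0. The 4 mesenchymal markers were all present. Of 8 endothelial markers TIE1 (401 to 656 CPM), CDH5 (22.1 to 51.4 CPM) and KDR (1.66 to 3.02 CPM) were present, but PECAM1 and VWF had at most 6 counts, CLDN5 at most 2 and ERG had 0. The summed level of the endothelial list was 425 to 622 CPM in 20% O2 +Doxy, 439 to 463 in 20% O2 wo Doxy, 498 to 695 in 3% O2 +Doxy and 528 to 686 in 3% O2 wo Doxy. None of the 5 leukocyte markers was tested, and of 5 fibroblast or pericyte markers RGS5 (4.50 to 8.78 CPM) and ACTA2 (at most 0.942 CPM) were, while LUM had 0 counts. Between 20% O2 +Doxy and wo Doxy the summed levels of the epithelial, mesenchymal and fibroblast or pericyte lists did not overlap. In that order they were 1050 to 1420 against 846 to 902 CPM, 3570 to 4070 against 3030 to 3140, and 5.21 to 6.01 against 8.93 to 9.82. At 3% O2 these were 1040 to 1260 against 1080 to 1210, 4040 to 5080 against 3690 to 4250, and 5.40 to 6.04 against 6.78 to 7.84 CPM. The leukocyte list overlapped between +Doxy and wo Doxy at 20% O2 (0.0639 to 0.217 against 0.19 to 0.385 CPM) and stayed at or below 0.515 CPM in all libraries. The part of these markers in the results was not tested. Some libraries stood apart in a way that followed the GC content of transcripts. The median of GC-rich genes (above 56.2% GC) minus that of GC-poor genes (below 43.6% GC), taken as log2 deviation from the mean of a library's own condition, was 0.38 in replicate 1 of 20% O2 +Doxy and 0.35 in replicate 3 of 3% O2 +Doxy. It lay between -0.27 and 0.20 in the other 10.

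Promoter windows of ANGPTL4, ADM and EDN1 are shown because ANGPTL4 and ADM were called higher at 3% O2 in both Doxy states, while EDN1 was called lower with FDX2 loss and higher at 3% O2 without Doxy. The windows hold 250 bases before and 50 after the RefSeq start, on the strand of the gene (GRCh38.p14). Capitals mark the core of the HIF binding motif, ACGTG or GCGTG on either strand (CACGT and CACGC when read on the other strand). The windows are chr19:8363905-8364204 for ANGPTL4, chr11:10304823-10305122 for ADM and chr6:12290111-12290410 for EDN1, all on the plus strand.
ANGPTL4: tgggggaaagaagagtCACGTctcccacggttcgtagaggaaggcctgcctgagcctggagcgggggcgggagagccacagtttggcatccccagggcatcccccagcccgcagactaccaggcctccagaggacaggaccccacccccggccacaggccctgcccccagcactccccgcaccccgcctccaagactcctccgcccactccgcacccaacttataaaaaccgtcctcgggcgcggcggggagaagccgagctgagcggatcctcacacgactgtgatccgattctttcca
ADM: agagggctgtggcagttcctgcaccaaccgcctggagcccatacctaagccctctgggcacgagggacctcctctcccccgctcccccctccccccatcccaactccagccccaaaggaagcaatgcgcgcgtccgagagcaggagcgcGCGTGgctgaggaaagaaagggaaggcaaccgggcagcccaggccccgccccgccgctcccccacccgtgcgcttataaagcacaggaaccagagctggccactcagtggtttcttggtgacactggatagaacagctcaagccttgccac
EDN1: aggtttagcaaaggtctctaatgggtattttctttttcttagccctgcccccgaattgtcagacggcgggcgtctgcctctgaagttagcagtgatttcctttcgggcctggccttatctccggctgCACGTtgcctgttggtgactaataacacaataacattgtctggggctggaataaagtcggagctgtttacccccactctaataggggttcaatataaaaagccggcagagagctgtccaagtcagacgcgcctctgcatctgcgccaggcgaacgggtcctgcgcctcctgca
Windows were found for 6 of the 7 members, all but VEGFA, and each of the 6 held 1 core. It was ACGTG in ANGPTL4 (first base at position -234 from the start) and EDN1 (-123), and GCGTG in ADM (-101), VEGFB (-61), VEGFC (-59) and PGF (5, past the start). Of 34943 windows of this length 21.4% held ACGTG, 36.5% held GCGTG and 48.4% held at least 1 of them. The ATF4 composite motif TGATGNAA, searched on both strands, was in none of the 6 and in 3.62% of all windows. A match describes letters in a window and shows no binding.

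Levels are given as CPM, counts scaled to a common library size with TMM factors, with the SD over 3 libraries. Fold changes and adjusted p-values come from edgeR's quasi-likelihood test on all 16891 genes with Benjamini-Hochberg adjustment, and a gene is called changed at an adjusted p under 0.05. In bulk RNA, more RNA per cell and more cells that express a gene cannot be told apart. The plot of CPM by condition shows all 12 libraries for each factor.

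**Figure D1:**
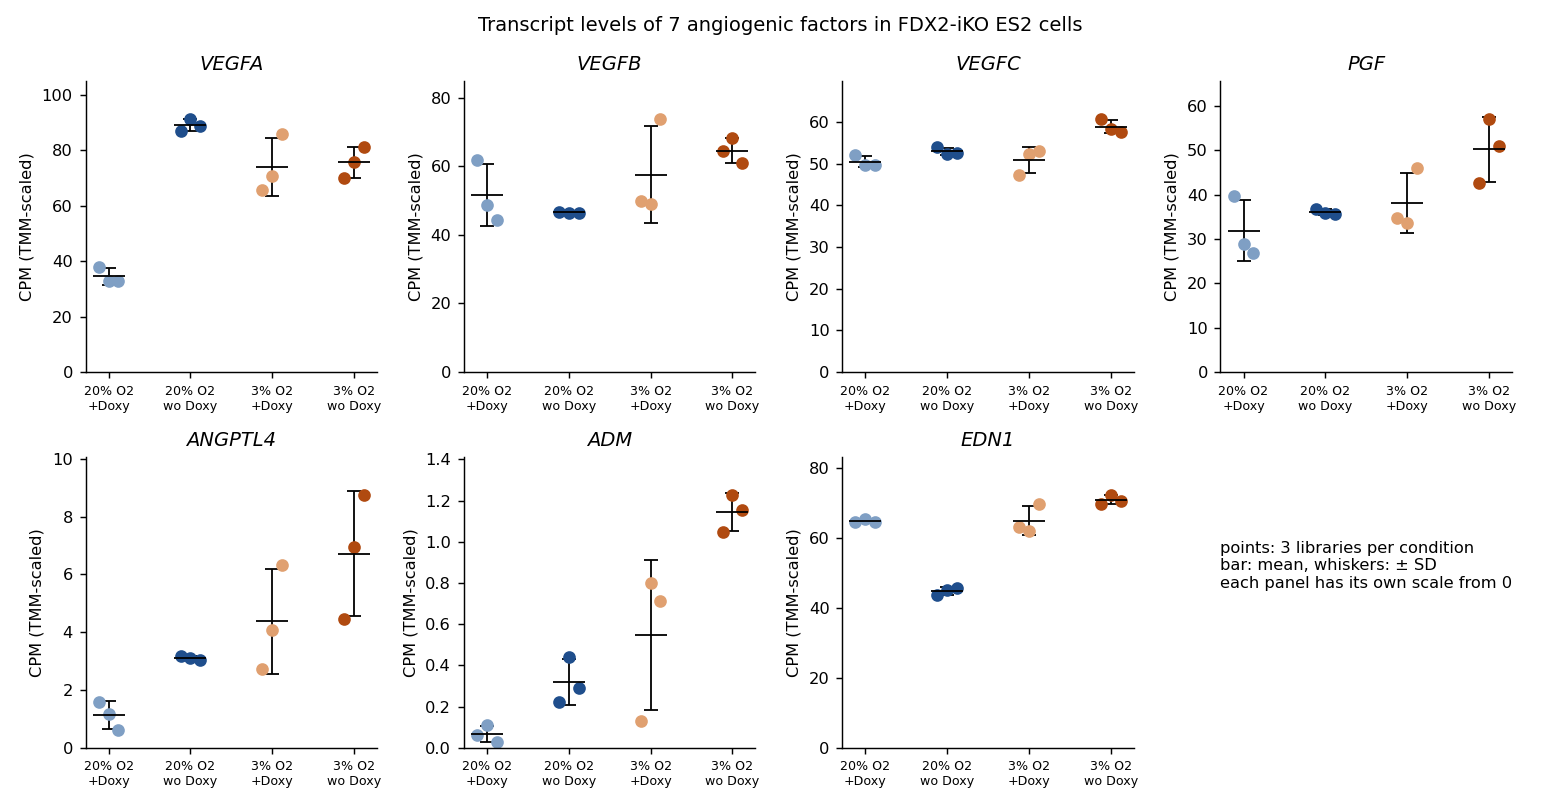
CPM (TMM-scaled) of the 7 factors in each of 12 libraries, 1 panel per gene with its own axis from 0. Points are libraries, bars are means and whiskers are SD over 3 libraries. VEGFA sits between 32.8 and 38.1 CPM in 20% O2 +Doxy and above 65 CPM in all other libraries, EDN1 is lowest in 20% O2 wo Doxy, and ADM stays below 1.3 CPM throughout.

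VEGFA (ENSG00000112715, chromosome 6, 43770184 to 43786487, plus strand, GRCh38) was lowest in FDX2-proficient cells at 20% O2 and higher in the other 3 conditions. Its levels in the 3 libraries of 20% O2 +Doxy were 38.1, 32.8 and 32.9 CPM (34.6 ± 3.03, SD, n = 3). In 20% O2 wo Doxy they were 87.1, 91.3 and 88.8 CPM (89.1 ± 2.11, SD, n = 3). All 3 libraries without Doxy were above all 3 with Doxy. FDX2 loss at 20% O2 raised VEGFA 2.58-fold (log2 1.37, SE 0.10, edgeR adjusted p = 2.96e-06). In this comparison 17.6% of all tested genes were called higher and 17.7% lower.

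At 3% O2 the levels of VEGFA were 65.5, 70.6 and 85.9 CPM with Doxy (74.0 ± 10.6, SD, n = 3) and 70.2, 75.7 and 81.1 CPM without it (75.7 ± 5.45, SD, n = 3). These groups overlapped. The difference was 0.03 on the log2 scale, with a 95% confidence interval from -0.19 to 0.25 (edgeR adjusted p = 0.879), which leaves out an increase of the size seen at 20% O2. The difference between both responses to FDX2 loss was tested directly and was -1.33 (log2, SE 0.14, edgeR adjusted p = 0.000541). For that difference 3.21% of tested genes were called higher and 4.08% lower. All alternative settings tried kept VEGFA called in both tests.

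Low oxygen alone also went with more VEGFA in FDX2-proficient cells. Going from 20% to 3% O2 with Doxy raised it 2.14-fold (log2 1.098, SE 0.10, edgeR adjusted p = 0.000121), and the groups did not overlap. Here 1.63% of tested genes were called higher and 0.385% lower. In FDX2-deficient cells all 3 libraries at 3% O2 were below all 3 at 20% O2, by 0.24 on the log2 scale (fold 0.85, SE 0.10), which missed the threshold (edgeR adjusted p = 0.102). The call in this pair of conditions depended on the fit. VEGFA was called lower in a fit with replicate number as a block in the 6 libraries compared (log2 -0.27, edgeR adjusted p = 0.0198), in the same 6 libraries without the block (-0.27, 0.0198), with DESeq2's Wald test (-0.25, 0.0421), with at least 10 counts required in every library (-0.26, 0.0401) and after a correction for GC content (-0.44, 0.00011). In the order of levels, 20% O2 wo Doxy stood above both 3% O2 conditions without a called difference to either (adjusted p = 0.102 and 0.0547), and 20% O2 +Doxy stood below all others.

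Of the exonic bases of VEGFA 1.3% overlap a gene on the other strand. Its share of the VEGF ligand transcripts moved with its level. Per kilobase of the longest coding transcript, VEGFA made up 11.1% ± 0.54 of the sum of VEGFA, VEGFB, VEGFC and PGF in 20% O2 +Doxy, 24.4% ± 0.59 in 20% O2 wo Doxy, 19.6% ± 0.63 in 3% O2 +Doxy and 17.4% ± 1.25 in 3% O2 wo Doxy (SD, n = 3 each). The size of this share depends on the length used. With all annotated exons of VEGFA merged (14431 bases against 3535 in the longest coding transcript) it was 3.88%, 9.61%, 7.37% and 6.58% in the same order.

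VEGFB (ENSG00000173511, chromosome 11, 64234538 to 64238793, plus strand), a ligand of FLT1 known for its part in fatty acid handling and cell survival, was not called changed with FDX2 loss. Its levels were 61.8, 48.6 and 44.4 CPM in 20% O2 +Doxy and 46.8, 46.5 and 46.5 CPM in 20% O2 wo Doxy. At 3% O2 they were 49.9, 49.1 and 73.8 CPM with Doxy and 64.5, 68.3 and 61.1 CPM without it. The groups with and without Doxy overlapped at both oxygen levels, with differences of -0.15 (95% interval -0.49 to 0.19, edgeR adjusted p = 0.499) and 0.17 on the log2 scale (-0.17 to 0.50, adjusted p = 0.56). In FDX2-deficient cells VEGFB was 1.39-fold higher at 3% than at 20% O2 (log2 0.47, SE 0.15, edgeR adjusted p = 0.0449), where 13.9% of all tested genes were called higher and 11.9% lower. This call was lost without any 1 of the 6 libraries compared (adjusted p = 0.0674 to 0.124) and with a replicate block in all 12 libraries (0.0807).

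PGF (placental growth factor, ENSG00000119630, chromosome 14, 74941834 to 74955784, minus strand), another FLT1 ligand, was also called only at 3% O2 in FDX2-deficient cells. Its levels were 39.7, 28.97 and 27.0 CPM in 20% O2 +Doxy and 36.8, 36.0 and 35.6 CPM in 20% O2 wo Doxy. At 3% O2 they were 34.8, 33.7 and 46.0 CPM with Doxy and 42.6, 57.1 and 51.0 CPM without it. The groups with and without Doxy overlapped at both oxygen levels, and neither difference was called (log2 0.18, adjusted p = 0.428 at 20% O2 and 0.40, adjusted p = 0.167 at 3% O2). In FDX2-deficient cells PGF was 1.39-fold higher at 3% O2 (log2 0.48, SE 0.16, edgeR adjusted p = 0.049). This call was lost without any 1 of the 6 libraries but replicate 1 of 3% O2 wo Doxy (0.0972 to 0.163), with a replicate block in all 12 libraries (0.0912) and with DESeq2's size factors (0.0501). From 20% O2 +Doxy to 3% O2 wo Doxy the step was 1.57-fold (log2 0.66, SE 0.16, adjusted p = 0.0172, with 18.3% of tested genes called in either direction).

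ANGPTL4, PGF and VEGFB are the most GC-rich members (63.5%, 62.6% and 61.5% GC, the mean over annotated transcripts). In both +Doxy conditions their highest values went with the widest GC gap. Replicate 1 of 20% O2 +Doxy and replicate 3 of 3% O2 +Doxy, the libraries with the widest GC gap, were also the highest of their condition for VEGFB (log2 deviation 0.27 and 0.38), for PGF (0.33 and 0.28) and for ANGPTL4 (0.42 and 0.55). The same held for VEGFA (57.8% GC, 0.14 and 0.22) and VEGFC (0.04 and 0.06). It did not hold in both conditions for EDN1 or ADM. In 3% O2 wo Doxy the GC gaps of replicates 1 to 3 were -0.142, 0.203 and -0.063. VEGFB and PGF were highest in replicate 2 there, but ANGPTL4 deviated by -0.494, 0.0892 and 0.405 and VEGFA by -0.105, 0.00301 and 0.102. CA9 rose from replicate 1 to 3 in both 3% O2 conditions (40.4, 63.1 and 87.2 CPM with Doxy, 46.1, 59.2 and 83.8 without it). NDRG1, BNIP3, VEGFA and ANGPTL4 rose in the same order, and what sets it was not tested. Between FDX2-deficient cells at 3% and 20% O2, GC-rich genes as a whole differed by a median of 0.28 and GC-poor genes by -0.12 on the log2 scale. After correction for GC content the VEGFB difference between these conditions fell to 0.17 (edgeR adjusted p = 0.0672) and that of PGF to 0.14 (adjusted p = 0.0176). With replicate number as a block in the 6 libraries compared both stayed called (VEGFB 0.44, adjusted p = 0.00762, and PGF 0.44, adjusted p = 0.0305), and with block and GC correction together neither did (0.17, adjusted p = 0.0976, and 0.14, adjusted p = 0.0612). The same correction also brought PGF past the threshold for FDX2 loss at 20% O2 (log2 0.44, adjusted p = 3.92e-06), for FDX2 loss at 3% O2 (0.31, adjusted p = 0.000405) and for low oxygen with Doxy (0.27, adjusted p = 0.00167). The plot of library deviations against the GC gap shows this for 4 members.

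**Figure D2:**
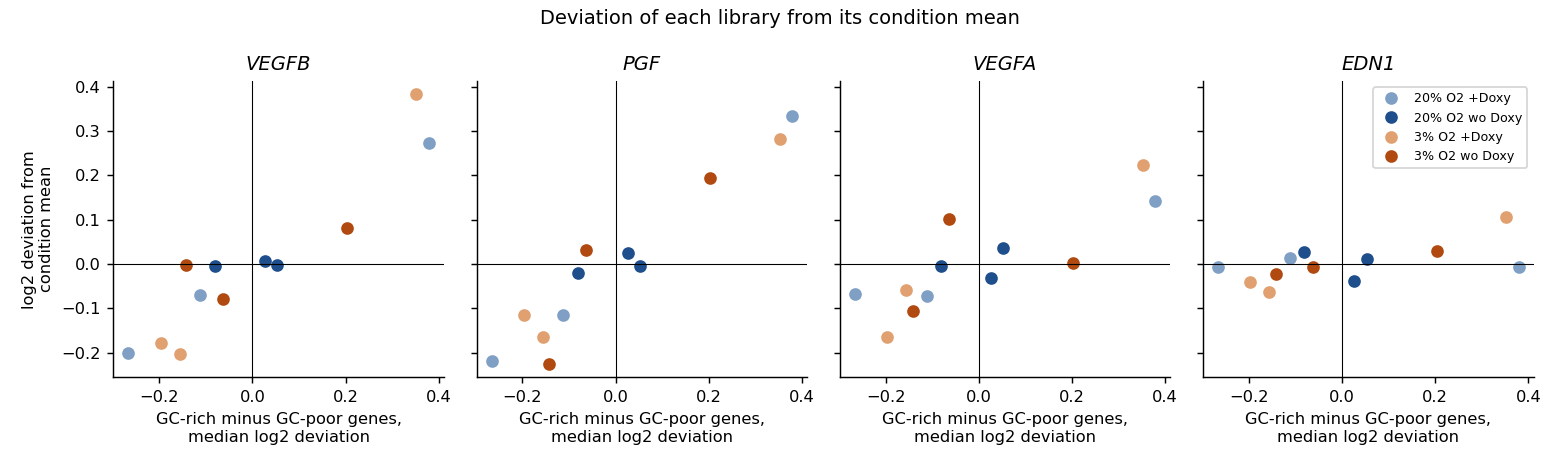
Log2 deviation of VEGFB, PGF, VEGFA and EDN1 from the mean of their condition in each of 12 libraries (y axis) against the library's gap between GC-rich and GC-poor genes (x axis, median log2 deviation). Points are libraries coloured by condition. The libraries with gaps of 0.38 and 0.35 have the highest VEGFB, PGF and VEGFA deviations, while EDN1 stays between -0.06 and 0.11.

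VEGFC (ENSG00000150630, chromosome 4, 176683538 to 176792727, minus strand), the main growth factor of lymphatic vessels, was the steadiest member. Its levels were 52.0, 49.7 and 49.7 CPM in 20% O2 +Doxy, 53.9, 52.4 and 52.7 CPM in 20% O2 wo Doxy and 47.3, 52.4 and 53.0 CPM in 3% O2 +Doxy. In 3% O2 wo Doxy they were 60.8, 58.4 and 57.6 CPM, above every other library. FDX2 loss at 3% O2 raised it 1.16-fold (log2 0.21, SE 0.05, edgeR adjusted p = 0.0382), in a comparison where 4.20% of tested genes were called higher and 3.11% lower. No other member was called there. The call was lost with replicate number as a block (adjusted p = 0.0983), with no filter on low counts (0.21), in the 6 libraries compared alone (0.195) and without any 1 of 5 of the 6 libraries (0.0691 to 0.128), all but replicate 3 of 3% O2 +Doxy. At 20% O2 the change with FDX2 loss was 0.07 (log2, 95% interval -0.05 to 0.19, adjusted p = 0.343). The difference between both responses was 0.14 (SE 0.08, adjusted p = 0.296), so the effect of FDX2 loss on VEGFC was not shown to differ between oxygen levels.

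ANGPTL4 (ENSG00000167772, chromosome 19, 8363289 to 8374373, plus strand) was scarce but readable, with 21 to 281 counts per library. Its levels were 1.60, 1.16 and 0.62 CPM in 20% O2 +Doxy and 3.17, 3.096 and 3.02 CPM in 20% O2 wo Doxy. At 3% O2 they were 2.72, 4.08 and 6.33 CPM with Doxy and 4.46, 6.94 and 8.76 CPM without it. All 9 libraries that lacked Doxy or had low oxygen were above the 3 of 20% O2 +Doxy. FDX2 loss at 20% O2 raised ANGPTL4 2.76-fold (log2 1.46, SE 0.38, edgeR adjusted p = 0.0118), a call that held at the threshold of 0.05 in every alternative tried. The highest library of 20% O2 +Doxy and that of 3% O2 +Doxy were those that stood apart by GC content, and the part of GC content in these values was not tested beyond the correction. Low oxygen raised it 3.90-fold with Doxy (log2 1.96, SE 0.38, adjusted p = 0.0213) and 2.17-fold without Doxy (log2 1.12, SE 0.35, adjusted p = 0.0391). The call with Doxy was lost in the 6 libraries compared alone (adjusted p = 0.133) and with a block (0.0756). Without 1 library it was lost for replicate 2 or 3 of either condition (0.0605 to 0.0969). The call without Doxy was lost with the block in all 12 libraries (0.0744) and for any left-out library but replicate 1 of 3% O2 wo Doxy (0.0924 to 0.122), and it held with the block in the 6 libraries compared (log2 1.04, adjusted p = 0.0284). At 3% O2 FDX2 loss changed it by 0.62 on the log2 scale (95% interval -0.15 to 1.39, adjusted p = 0.313). The difference between both responses was -0.84 (SE 0.51, adjusted p = 0.355), and -1.22 after GC correction (adjusted p = 0.0385).

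ADM (ENSG00000148926, chromosome 11, 10304680 to 10307397, plus strand) was close to the limit of what these libraries can read. It had 2, 3 and 1 counts in 20% O2 +Doxy, 7, 14 and 9 in 20% O2 wo Doxy, 4, 21 and 22 in 3% O2 +Doxy and 26, 31 and 37 in 3% O2 wo Doxy. The level in 3% O2 wo Doxy was 1.14 ± 0.09 CPM (SD, n = 3), and replicate 1 of 3% O2 +Doxy, with 4 counts, lay below the 3 libraries of 20% O2 wo Doxy. ADM was tested because 6 libraries reached the filter level of 0.338 CPM, 0 of them in 20% O2 +Doxy, 1 in 20% O2 wo Doxy, 2 in 3% O2 +Doxy and 3 in 3% O2 wo Doxy, so its calls are no support for a change in the members as a group. Since 20% O2 +Doxy held 3 counts or fewer per library, fold changes against it are lower bounds, taken against 3 counts per library. ADM was at least 3.28-fold higher in 20% O2 wo Doxy, at least 5.61-fold higher in 3% O2 +Doxy and at least 11.7-fold higher in 3% O2 wo Doxy. The edgeR calls in these comparisons (adjusted p = 0.027, 0.0467 and 0.00175 in that order) belong to the fitted changes and do not test the bounds. All calls of ADM are given as a description. In FDX2-deficient cells it was 3.54-fold higher at 3% than at 20% O2 (log2 1.82, SE 0.53, adjusted p = 0.0271). FDX2 loss at 3% O2 gave a difference of 1.07 on the log2 scale without a call (95% interval -0.04 to 2.18, adjusted p = 0.233), although the groups did not overlap. The call for FDX2 loss at 20% O2 was lost without replicate 1 or 3 with Doxy or replicate 2 or 3 without it (adjusted p = 0.0525 to 0.0892). The call at 3% O2 with Doxy was lost with a block (0.0617), in the 6 libraries compared (0.277) and without any 1 library but replicate 1 of 3% O2 +Doxy (0.0909 to 0.177). The call at 3% O2 without Doxy was lost without replicate 1 or 3 at 20% O2 or replicate 2 or 3 at 3% O2 (0.0534 to 0.0988).

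EDN1 (ENSG00000078401, chromosome 6, 12290363 to 12297194, plus strand) was lowest in FDX2-deficient cells at 20% O2, where VEGFA was highest. Its levels were 64.4, 65.2 and 64.3 CPM in 20% O2 +Doxy and 43.5, 45.1 and 45.6 CPM in 20% O2 wo Doxy. At 3% O2 they were 62.9, 61.9 and 69.7 CPM with Doxy and 69.7, 72.2 and 70.5 CPM without it. The 3 libraries of 20% O2 wo Doxy were below the other 9. FDX2 loss at 20% O2 lowered EDN1 to 0.69 of its level (log2 -0.53, SE 0.05, edgeR adjusted p = 2.56e-05). At 3% O2 FDX2 loss gave a difference of 0.13 on the log2 scale (95% interval 0.01 to 0.24, adjusted p = 0.178), which was called only when replicate 3 of 3% O2 +Doxy was left out (0.18, adjusted p = 0.0332). The difference between both responses was 0.66 (log2, SE 0.07, adjusted p = 0.000801). Low oxygen raised EDN1 1.58-fold in FDX2-deficient cells (log2 0.66, SE 0.05, adjusted p = 1.88e-05), whereas the difference with Doxy was 0.0049 (log2, 95% interval -0.11 to 0.12, adjusted p = 0.99). All called EDN1 changes kept their call in every alternative tried, with and without a block and with GC correction.

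**Figure D3:**
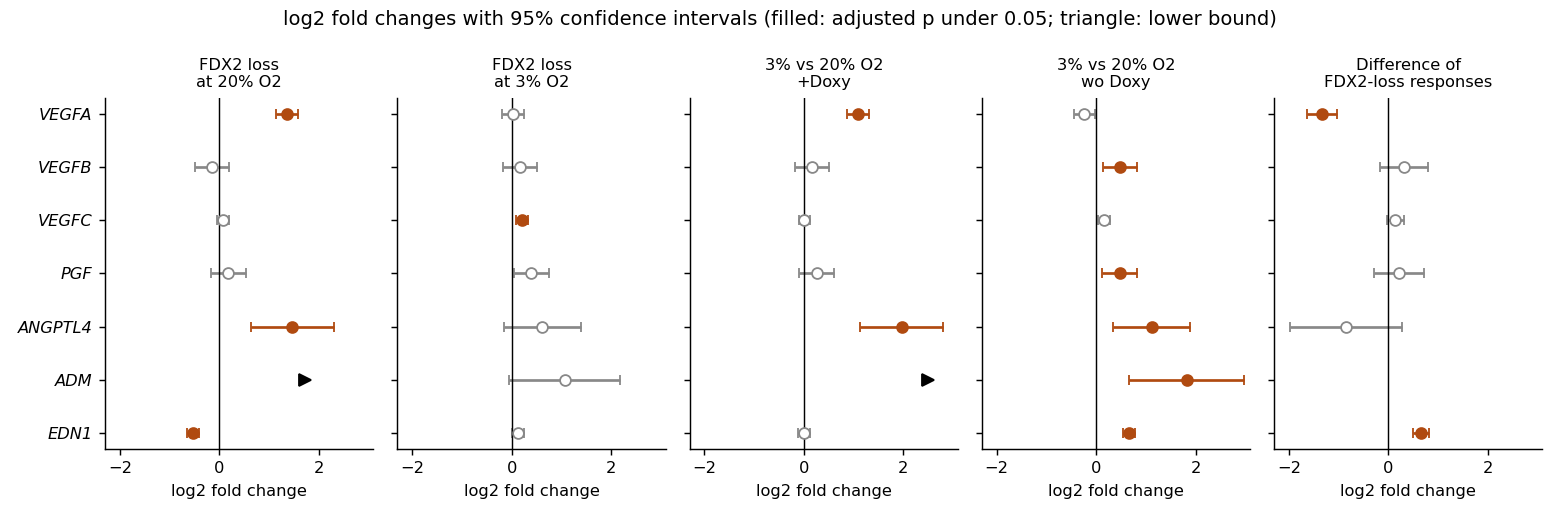
Log2 fold changes of the 7 factors with 95% confidence intervals in 5 comparisons (x axis, edgeR on 12 libraries). Filled points have an adjusted p under 0.05, and triangles are lower bounds for ADM against 20% O2 +Doxy, where no difference of responses is drawn for it. VEGFA is at 1.37 for FDX2 loss at 20% O2 and at 0.03 at 3% O2, and EDN1 is at -0.53 and 0.13.

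ADM is left out of the counts over the factors, since it was tested only through the conditions where it is high. Of the other 6, FDX2 loss raised 2 and lowered 1 at 20% O2 and raised 1 at 3% O2. Low oxygen raised 2 of them with Doxy and 4 without it. The shares of all tested genes called in those directions were 17.6%, 17.7%, 4.20%, 1.63% and 13.9%. The comparisons share libraries, so these counts are not independent of each other. The median log2 change of the 6 was 0.12, 0.19, 0.21 and 0.47 in the 4 comparisons, where all tested genes had medians between -0.0045 and 0.065.

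Transcripts of the receptors of these factors were mostly scarce. Of the VEGF receptors, FLT1 and FLT4 had at most 3 counts in any library. KDR, the main signalling receptor for VEGFA, was at 1.79 ± 0.11 CPM in 20% O2 +Doxy and 2.61 ± 0.25 in 20% O2 wo Doxy (SD, n = 3), a rise of 0.55 on the log2 scale (SE 0.13, edgeR adjusted p = 0.00622). The co-receptors NRP1 and NRP2 were abundant. NRP1 was at 116.8 ± 5.68 CPM and rose by 0.23 (SE 0.05, adjusted p = 0.00665), and NRP2 was at 97.0 ± 5.53 CPM and rose by 0.27 (SE 0.06, adjusted p = 0.00604). For FDX2 loss at 20% O2, 17.6% of all tested genes were called higher and 17.7% lower. None of the 3 was called in the other 4 comparisons. There 4.20% (FDX2 loss at 3% O2), 1.63% (low oxygen with Doxy), 13.9% (without Doxy) and 3.21% (difference of the responses) of all tested genes were called higher. For adrenomedullin, the receptor CALCRL was at 0.44 to 0.88 CPM, RAMP2 had at most 3 counts and RAMP3 had 0, while RAMP1 was at 0.75 to 1.51 CPM and was higher at 3% O2 in FDX2-deficient cells (log2 1.02, SE 0.27, adjusted p = 0.0196). For endothelin, EDNRA (1.00 to 1.52 CPM), EDNRB (4.26 to 4.54 CPM) and the converting enzyme ECE1 (29.4 to 35.4 CPM) were not called in any comparison. The lipases bound by ANGPTL proteins, LPL, LIPC and PNLIP, had 0 counts and LIPG had at most 1.

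**Figure D4:**
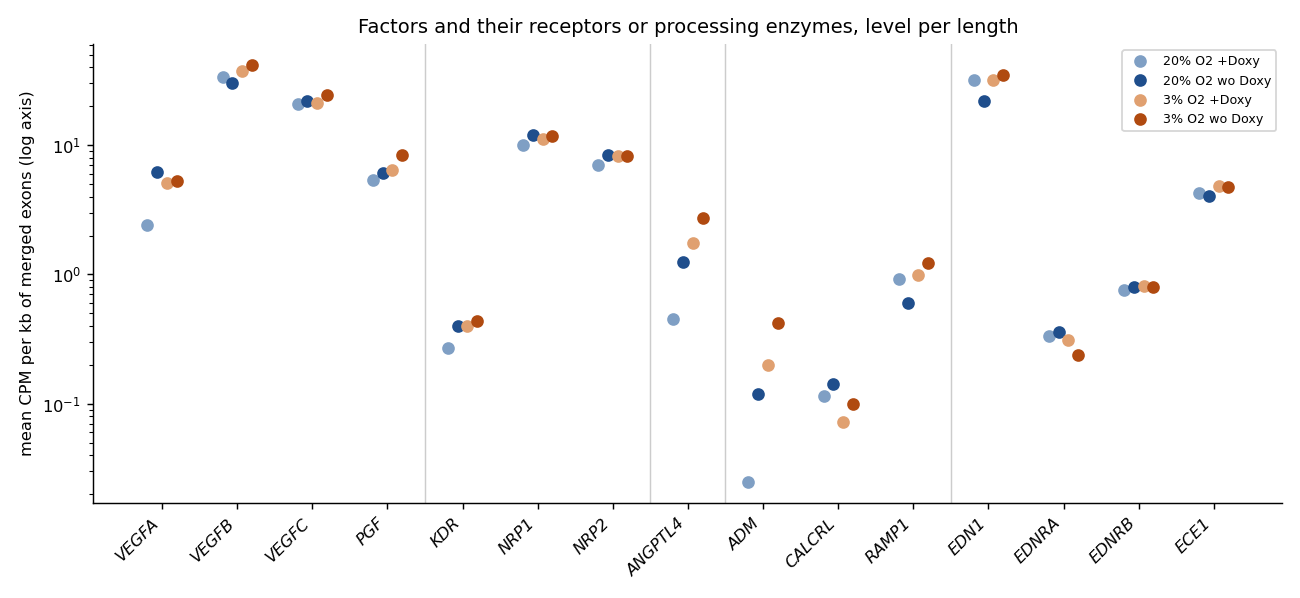
Mean CPM per kilobase of merged exons (log axis) of the 7 factors and of the tested receptors, co-receptors and ECE1, with 1 point per condition. VEGFB and EDN1 lie at 22.0 or above in every condition, KDR, CALCRL, EDNRA and EDNRB below 1, and NRP1 and NRP2 at 6.98 to 11.9.

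Paralogs of the members were mostly unread. Of 12, only ADM2, ADM5, ANGPTL2 and ANGPTL6 were tested, and VEGFD, EDN2 and EDN3 had at most 2 counts. ADM2, a peptide of the adrenomedullin family, had a mean of 0.43 ± 0.03 CPM in 20% O2 wo Doxy and 3 counts or fewer per library in the other conditions. It was at least 4.38-fold higher after FDX2 loss at 20% O2 and at least 3.85-fold lower at 3% O2 without Doxy, given as a description since it was tested only through the condition where it is high. ADM5 fell by 0.94 on the log2 scale after FDX2 loss at 20% O2 (SE 0.26, adjusted p = 0.0176), and 36.2% of its exonic bases overlap other genes. Of the angiopoietins and Tie receptors 3 were tested. TIE1 (424 to 547 CPM on average) and ANGPT2 (20.4 to 25.3 CPM) were not called in any comparison, and ANGPT1 was lower at 3% O2 with Doxy (log2 -0.75, SE 0.16, adjusted p = 0.0412).

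Among 12 tested genes of other secreted angiogenic factors, FDX2 loss at 20% O2 left 5 higher and 3 lower, where 17.6% and 17.7% of all tested genes were called in those directions. The stanniocalcins STC1 and STC2, secreted glycoproteins known to be induced by hypoxia and by stress of the endoplasmic reticulum, were among those higher. STC1 was at 38.0 ± 1.83 CPM in 20% O2 +Doxy, 99.2 ± 0.27 in 20% O2 wo Doxy, 109.3 ± 4.64 in 3% O2 +Doxy and 117.6 ± 1.04 in 3% O2 wo Doxy (SD, n = 3 each). It rose with FDX2 loss at 20% O2 (log2 1.38, SE 0.05, edgeR adjusted p = 3.85e-08) and with low oxygen in the presence of Doxy (1.52, SE 0.05, adjusted p = 1.25e-07). STC2 rose by 0.86 (SE 0.07, adjusted p = 6.63e-06) and by 0.66 (SE 0.07, adjusted p = 0.000429). APLN (apelin) and CCN2 (connective tissue growth factor) were among those lower, as EDN1 was. APLN fell by 1.19 after FDX2 loss at 20% O2 (SE 0.12, adjusted p = 3.4e-05) and CCN2 fell by 0.48 (SE 0.06, adjusted p = 0.00013). In FDX2-deficient cells at 3% O2 both were higher again, APLN by 1.30 (SE 0.12, adjusted p = 5.9e-05) and CCN2 by 0.50 (SE 0.06, adjusted p = 0.000233). FGF1 was higher at 3% O2 with Doxy (0.53, SE 0.06, adjusted p = 0.000649) and without it (0.55, SE 0.06, adjusted p = 0.000134), and FGF2 was lower at 3% O2 without Doxy (-0.61, SE 0.10, adjusted p = 0.00152).

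Of 12 tested genes of angiogenesis inhibitors, 3 rose and 1 fell when FDX2 was lost at 20% O2, against 17.6% and 17.7% of all tested genes, which is no result about the list. At 3% O2 2 rose, against 4.20% of all tested genes. SEMA3A, which competes with VEGFA for NRP1, was among those higher at 20% O2 (log2 0.81, SE 0.08, edgeR adjusted p = 2.83e-05) and at 3% O2 (0.74, SE 0.08, adjusted p = 0.000614). THBS1 (thrombospondin-1) rose by 0.30 at 20% O2 (SE 0.07, adjusted p = 0.00961) and SPARC fell by 0.35 (SE 0.06, adjusted p = 0.000683).

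Lists of genes from 2 pathways known to act on VEGFA are given next to it. Both were chosen with earlier results of these data known, so their counts are given as a description. Of 10 other hypoxia-induced genes, all 10 were higher at 3% O2 with Doxy (median log2 1.34) and all 10 without Doxy (median 1.35), where 1.63% and 13.9% of all tested genes were called higher. CA9 was at 3 counts or fewer in 20% O2 +Doxy, so these counts include a gene tested through its high conditions. CA9, a HIF target that is nearly silent in normal oxygen, was at 0.06 to 0.11 CPM in 20% O2 +Doxy and 0.19 to 0.29 in 20% O2 wo Doxy, against 40.4 to 87.2 CPM in 3% O2 +Doxy and 46.1 to 83.8 in 3% O2 wo Doxy. After FDX2 loss at 20% O2, 2 of the 10 were higher and 3 were lower (median 0.10), against 17.6% and 17.7% of all tested genes. After FDX2 loss at 3% O2 none was higher and 4 were lower (median -0.18), against 4.20% and 3.11% of all tested genes. DDIT4 and PFKFB4 were those higher at 20% O2, DDIT4 by 2.01 (SE 0.14, adjusted p = 2.46e-06) and PFKFB4 by 0.73 (SE 0.21, adjusted p = 0.0182). DDIT4 is also known as an ATF4 target, and 41.2% of its exonic bases overlap an antisense gene. BNIP3 fell by 0.26 (SE 0.07, adjusted p = 0.0137) and SLC2A1 by 0.69 (SE 0.12, adjusted p = 0.0014).

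The list of 7 other ATF4 target genes was likewise chosen with earlier results of these data known. All 7 were higher after FDX2 loss at 20% O2 (median log2 1.74), against 17.6% of all tested genes. DDIT3 rose by 2.49 (SE 0.06, edgeR adjusted p = 1.49e-09), CHAC1 by 1.79 (SE 0.20, adjusted p = 5.82e-05) and SESN2 by 1.74 (SE 0.19, adjusted p = 4.36e-05). At 3% O2 with Doxy none of the 7 was called (median -0.11), and after FDX2 loss at 3% O2 only DDIT3 was higher (0.85, SE 0.06, adjusted p = 3.91e-05) and PSAT1 lower (-0.33, SE 0.06, adjusted p = 0.00801). In FDX2-deficient cells all 7 were lower at 3% than at 20% O2 (median -1.67), against 11.9% of all tested genes. ATF4 transcript itself rose with FDX2 loss at 20% O2 (0.41, SE 0.09, adjusted p = 0.00491) and at 3% O2 (0.52, SE 0.09, adjusted p = 0.00723). At 3% against 20% O2 without Doxy, VEGFA differed by -0.24 and the 10 hypoxia-induced genes by a median of 1.35. What the 2 lists contribute to the level of VEGFA was not tested. ASNS shares 44.6% of its exonic bases with another gene on the same strand, DDIT3 39.6% with neighbouring genes and CA9 38.5% with ARHGEF39 on the other strand, so their counts are uncertain in part.

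**Figure D5:**
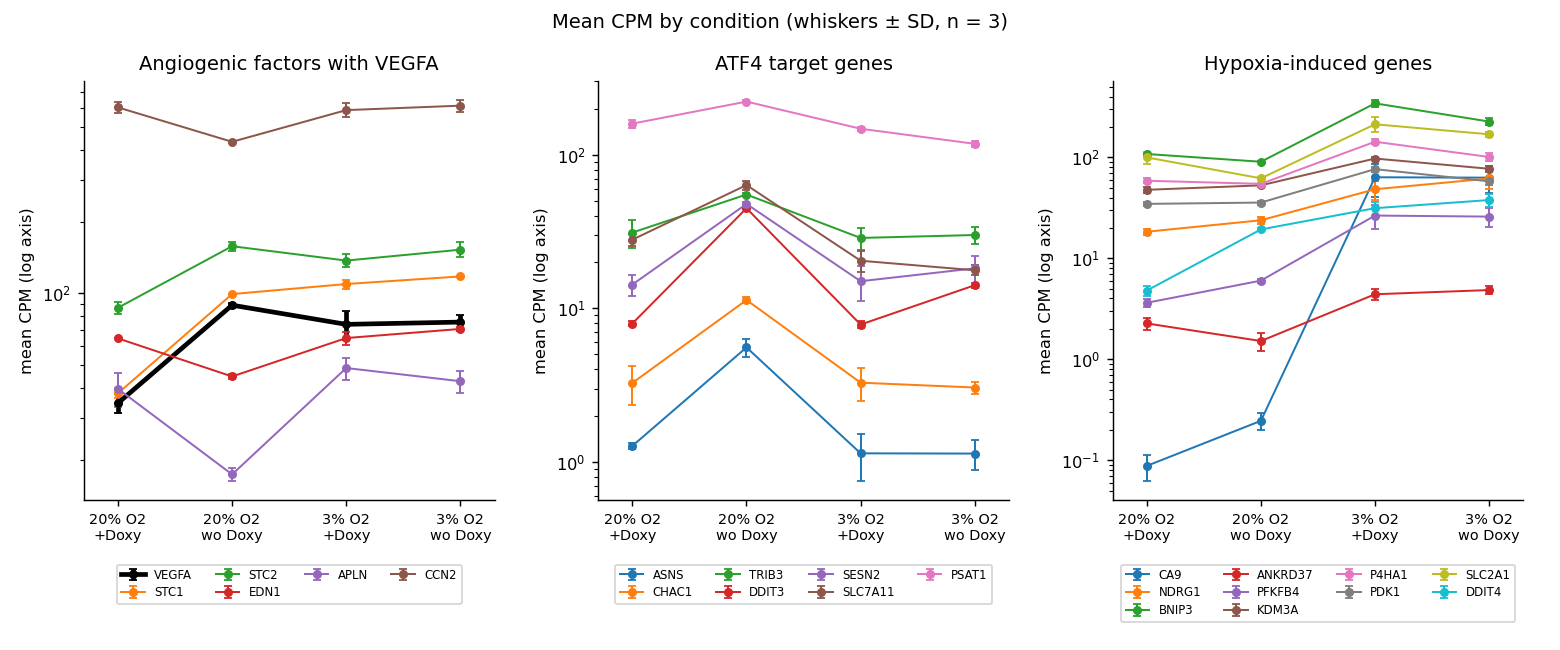
Mean CPM by condition on a log axis with SD over 3 libraries (whiskers), for VEGFA with 5 other angiogenic factors (left), 7 ATF4 target genes (middle) and 10 hypoxia-induced genes (right). The ATF4 targets peak in 20% O2 wo Doxy, the hypoxia-induced genes are higher in both 3% O2 conditions, and VEGFA (black, 34.6 to 89.1 CPM) is high in all 3 conditions other than 20% O2 +Doxy.

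Of 13 tested genes for oxygen sensing and for transcription factors that act on the members, 7 rose and 2 fell with FDX2 loss at 20% O2 (17.6% and 17.7% of all tested genes), and 3 rose and 1 fell at 3% O2 (4.20% and 3.11%). Low oxygen raised 2 and lowered 0 with Doxy (1.63% and 0.385%), and raised 1 and lowered 5 without it (13.9% and 11.9%). After FDX2 loss at 20% O2, EPAS1 (HIF-2 alpha) rose by 1.80 on the log2 scale (SE 0.11, edgeR adjusted p = 1.12e-06), from 5.58 ± 0.44 to 19.5 ± 0.75 CPM (SD, n = 3), and HIF1A rose by 0.46 (SE 0.06, adjusted p = 0.000213). At 3% O2 they rose by 0.70 (SE 0.11, adjusted p = 0.00492) and 0.29 (SE 0.06, adjusted p = 0.0201). HIF proteins are mainly set by degradation, so transcript levels do not give HIF activity. EGLN1, the main HIF prolyl hydroxylase and itself a HIF target, was higher at 3% O2 with Doxy (0.71, SE 0.05, adjusted p = 3.6e-05) and without it (0.74, SE 0.05, adjusted p = 1.09e-05). The 3 tested PPAR target genes other than ANGPTL4 were higher after FDX2 loss at 20% O2 and at 3% O2, against 17.6% and 4.20% of all tested genes. Low oxygen changed none with Doxy and lowered 2 of the 3 without it, PLIN2 (log2 -0.35, SE 0.05, adjusted p = 0.000487) and PDK4 (log2 -1.22, SE 0.34, adjusted p = 0.0226). PLIN2 rose by 0.58 at 20% O2 (SE 0.05, adjusted p = 6.62e-06) and 0.31 at 3% O2 (SE 0.05, adjusted p = 0.00388).

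The genes whose log2(CPM + 0.5) was most like that of each member over the 12 libraries are given as a description, since all points share their libraries and conditions. For VEGFA, among 10633 candidates with a mean of at least 5 CPM, they were STC2 (Pearson's r = 0.983), SLC2A3 (0.977), a glucose transporter, and LINC02985 (0.976). For EDN1 they were MSL1 (0.973), CCN2 (0.968) and VCL (0.961). CCN2 and VCL are both known as genes of the cytoskeleton and YAP pathway. VEGFB was most like INTS3 (0.983), TBC1D17 (0.98) and STX1A (0.977), and PGF most like PHLDA3 (0.979), NFIX (0.978) and MXD4 (0.978). VEGFC was most like ADORA2B (0.943), TSPAN5 (0.915) and H1-2 (0.912). ANGPTL4 was most like CD82 (0.982), BCAN-AS1 (0.965) and KRT79 (0.965), and ADM most like RASSF8-AS1 (0.937), SORCS2 (0.934) and PPP1R14B-AS1 (0.928).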

How the data were processed

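Poly(A) RNA of FDX2-iKO ES2 cells was copied from random hexamers and sequenced on DNBSEQ-T7. According to the labels, STAR alignment (GRCh38) and featureCounts were used by the authors. What they deposited are unnormalized counts for each gene and library, with 24958386 to 34313637 per library. The series text states that one paired read file each of replicates 1 and 2 of 20% O2 +Doxy was lost in transfer, and their counts were used. Tool versions, annotation release and strand setting are not given in the sources used here. Identifiers matched GENCODE 29, which gave positions, lengths and GC content.

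edgeR 4.0.16 in R 4.3.3 was run on these counts (TMM, filterByExpr with a minimum count of 10 and a total of 15, quasi-likelihood test, 4 condition means, 12 libraries, 8 residual degrees of freedom) and Benjamini-Hochberg adjustment over 16891 genes. DESeq2 1.42.0 was an alternative. Intervals are 95%, and the submitters call the replicates biological without naming separate cultures, so p-values measure the spread between these libraries. The members and gene lists were chosen with earlier results of these data known. Named list genes were called in at least 1 comparison, had a mean of at least 5 CPM and were among the 4 with the smallest adjusted p per list and comparison; receptors were named whatever their call. ADM2, ADM5, ANGPT1, ANGPT2, TIE1 ECE1, PDK4 and genes at or near 0 were named after their values were seen where the rule did not reach them. Genes at 3 counts or fewer in all libraries of a condition have bounds in place of folds. Replicate numbers were taken to pair the libraries only between 20% and 3% O2 without Doxy, where the 3 same-numbered pairs correlated at 0.226 to 0.51 across genes in their deviations and the other pairs at -0.499 to 0.222. Between other conditions same-numbered libraries correlated at -0.638 to 0.644. The labels state no pairing, so it was picked from these data and fits with this block are given as a description. The GC correction (lowess, span 0.3) and the block in the libraries compared were added after the data were seen.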

Additional observations from a re-analysis of the deposited data

Results flagged for a closer look

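The following responses to FDX2 loss differed between 3% and 20% O2 by the test of the difference itself (edgeR quasi-likelihood test, adjusted over 16891 genes, log2 scale, 3% minus 20% O2). Here 3.21% of all tested genes were called higher and 4.08% lower. List genes are named at most 4 per list, with a mean of at least 5 CPM. In all, 6 of 7 ATF4 targets were lower, and 2 of 13 oxygen-sensing or transcription factor genes were lower. Of 12 other secreted factors 3 were higher and 2 lower. Among the 7 factors, VEGFA differed by -1.33 (SE 0.14, adjusted p = 0.000541) and EDN1 by 0.66 (SE 0.07, adjusted p = 0.000801).

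Among other secreted factors the difference was -1.28 for STC1 (adjusted p = 7.08e-06), -0.71 for STC2 (0.00257), 0.54 for CCN2 (0.00433) and 1.01 for APLN (0.00627). EPAS1 differed by -1.10 (0.00281). Of hypoxia-induced genes, DDIT4 differed by -1.75 (0.0007), KDM3A by -0.48 (0.0123), PDK1 by -0.44 (0.0208) and P4HA1 by -0.40 (0.0381). PLIN2, a PPAR target, differed by -0.27 (0.0378). Of ATF4 targets, CHAC1 differed by -1.90 (0.00352), DDIT3 by -1.65 (3.74e-06), SLC7A11 by -1.39 (0.000783) and PSAT1 by -0.80 (0.000531). The causes of these differences were not tested.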

How the results depend on the processing

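VEGFA and EDN1 kept their direction and call in every alternative for FDX2 loss at 20% O2 and for the difference of the responses. Counts here are over all 7 factors, ADM included (3, 1, 3 and 5 called higher in the 4 comparisons as tested). Without ADM, which was tested only through the conditions where it is high, they were 2, 1, 2 and 4. The shares of all tested genes called higher were 17.6%, 4.20%, 1.63% and 13.9%. Shares under the other settings are not given, so the counts below only describe how calls depend on processing. They are no result about the members as a group. At an adjusted p under 0.01 the members called higher were 1 for FDX2 loss under 20% O2, 0 under 3% O2, and 1 each for low oxygen with and without Doxy. For FDX2 loss at 3% O2 the count was 0 with no filter, with a replicate block and in the compared libraries alone, and 2 with the GC correction. For 3% O2 with Doxy it was 1 with the replicate block and 1 in the compared libraries alone. For 3% O2 without Doxy it was 2 with the replicate block in all libraries, and the members called lower were 1 (VEGFA) with at least 10 counts in every library, the compared libraries alone, DESeq2's Wald test, the GC correction, and the replicate block in the compared libraries without and with the GC correction. For the difference of the responses 2 were called lower with the GC correction. Without 1 library the members called higher ranged from 2 to 3, 0 to 2, 1 to 3 and 1 to 4 in the 4 comparisons and from 1 to 2 for the difference. The replicate block in all libraries moved no other count by more than 1.5 times; it was 3 for FDX2 loss at 20% O2. Of the tests of other named genes, none changed direction, and 34 of those without 1 library and 22 of those under other settings lost the call. The causes of these shifts were not tested beyond what the settings do by construction.

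Sign changes concerned values near 0 with no call. VEGFB for FDX2 loss at 20% O2 was 0.078 and PGF for the difference -0.13 with the GC correction. VEGFA for FDX2 loss at 3% O2 was -0.00057 with no filter and -0.049 to 0.15 without 1 library. At 3% O2 with Doxy, EDN1 was -0.0039 with DESeq2's size factors, -0.013 with no filter, -0.0032 in the compared libraries, -0.0030 with DESeq2's test and -0.050 to 0.037 without 1 library, VEGFC was -0.0060 with no filter and -0.019 to 0.061 without 1 library, and VEGFB was -0.061 to 0.29 without 1 library. DESeq2's size factors moved the level of EDN1 in 20% O2 +Doxy to 65.2 CPM. ADM could not be tested where every library had to hold at least 10 counts. With counts of 1 to 37, depth limits ADM.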
